A study of Mus musculus with 12 samples.

Results

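Cyp1b1, Hsd11b1, Nr3c1 and Ahr were examined in adipocytes and stromo-vascular cells of subcutaneous and intraabdominal mouse fat. These are 4 of the 8251 genes named on the array. All probe sets whose single gene symbol in the platform annotation was 1 of them were taken, which gave 5 of the 12422 probe sets that are not controls: 2 for Cyp1b1 and 1 each for Hsd11b1, Nr3c1 and Ahr. The genes were chosen by their measured signals in these 4 groups, with those values known, so the values are a description and carry no test. Fat of 10 male C57BL/6 mice, an inbred laboratory strain, aged 42 to 49 days, was pooled by depot, flank fat being the subcutaneous and epididymal fat the intraabdominal depot, and was digested for 45 min in 1 mg/ml collagenase. The 12 arrays fall into 4 groups of 3: subcutaneous adipocytes, intraabdominal adipocytes, subcutaneous stromo-vascular cells and intraabdominal stromo-vascular cells. No group carried a transgene or a drug treatment in the labels. Adipocytes are the floating cells of the digest, and RNA was extracted from them directly. Stromo-vascular cells are the pelleted rest (preadipocytes with other cell types), which went through lysis of red cells, were plated and gave RNA after 16 h of culture, so cell fraction and culture cannot be told apart. Whether the 3 arrays of a group came from separate pools is not stated, so errors and p-values here cover the spread of these arrays only, which may be technical.

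Cyp1b1 encodes a cytochrome P450 that oxidises polycyclic aromatic hydrocarbons and also estradiol and retinoids, and it is best known from mesenchymal cells. Its gene is a classical target of the aryl hydrocarbon receptor, encoded by Ahr, a factor that binds ligand in the cytosol, moves to the nucleus and pairs there with ARNT. Hsd11b1 encodes 11-beta-hydroxysteroid dehydrogenase type 1, which in fat regenerates active corticosterone from its inert 11-keto form inside the endoplasmic reticulum. Nr3c1 encodes the glucocorticoid receptor, to which that corticosterone binds. Adipose tissue thus holds enzymes that make, inactivate or oxidise steroids locally, alongside the receptors that read them.

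The RefSeq table of promoters (build GRCm38.p6) held 2 of the 4 genes, Cyp1b1 and Hsd11b1, and their 250 bases before the annotated start are shown because the receptor pair of Ahr and ARNT acts on Cyp1b1 through DNA. Both windows lie on the minus strand, at chr17:79715062-79715311 for Cyp1b1 and chr1:193242361-193242610 for Hsd11b1. The Cyp1b1 window borders the end of its gene at 79715061. The Hsd11b1 gene spans 193221640 to 193264045, so the annotated start used for it lies inside the gene. Each is written 5′ to 3′ along the gene. Capitals mark the letters CACGC, which is the core of the xenobiotic response element, GCGTG, read on the opposite strand.
Cyp1b1: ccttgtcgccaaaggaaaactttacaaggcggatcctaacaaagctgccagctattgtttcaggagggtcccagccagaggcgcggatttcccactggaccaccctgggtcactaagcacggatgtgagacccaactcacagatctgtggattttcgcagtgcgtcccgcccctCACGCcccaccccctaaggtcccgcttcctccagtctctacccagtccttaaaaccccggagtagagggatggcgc
Hsd11b1: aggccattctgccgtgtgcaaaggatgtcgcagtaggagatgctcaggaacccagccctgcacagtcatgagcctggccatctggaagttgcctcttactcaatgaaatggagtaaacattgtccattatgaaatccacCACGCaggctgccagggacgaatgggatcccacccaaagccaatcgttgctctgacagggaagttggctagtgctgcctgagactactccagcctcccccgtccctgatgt
Cyp1b1 had 1 match to GCGTG on either strand, whose first letter stands 76 bases before the start. Hsd11b1 also had 1 match, which begins 111 bases before its start. The core occurred in 28.2% of 27025 promoter windows of this length (7624 windows), so its presence sets neither gene apart. The 6 letters TGTTCT (or AGAACA on the other strand), part of the glucocorticoid response element, were in neither window and in 16.2% of all windows. TATAAA was in neither window and in 13.0% of all. The Cyp1b1 window was 58.0% G and C with 12 CG pairs, and the Hsd11b1 window 54.4% with 6.

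Signals below are the deposited linear intensities, which can be set side by side between groups for 1 probe set but not between probe sets. Log2 differences are taken on log2(signal + 40.1), 40.1 being the 10th percentile of all values, so folds of dim genes are understated. A gene of a list is said to have risen or fallen where limma's adjusted p, over 8695 probe sets, was under 0.05. The 13 adipocyte markers were all higher in adipocytes than in stromo-vascular cells of the same depot, and their summed signal was 449001 to 523050 in subcutaneous adipocytes, 535925 to 623963 in intraabdominal adipocytes, 25106 to 30470 in subcutaneous stromo-vascular cells and 17222 to 20347 in intraabdominal stromo-vascular cells. The 14 preadipocyte and fibroblast markers summed to 77455 to 107643 in subcutaneous adipocytes, 59030 to 67989 in intraabdominal adipocytes, 439422 to 478870 in the subcutaneous stromo-vascular group and 333237 to 388617 in the intraabdominal one. No marker was at 0 on all arrays. The 3′ to 5′ signal ratio of the actin control, which rises as RNA is shortened, was 2.35 to 3.10 in subcutaneous adipocytes, 1.71 to 2.24 in intraabdominal adipocytes, 1.20 to 1.24 in subcutaneous stromo-vascular cells and 1.11 to 1.21 in intraabdominal stromo-vascular cells. The ratio separates the fractions completely. A fit with it as a covariate was run, and where a call was lost in that fit its log2 difference there is given beside the call. In these bulk samples fewer cells of a type and less RNA per cell cannot be told apart.

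The 4 genes had 4 different patterns over the groups. Of the 4 probe sets kept by the filter on dim signals, 1 (Cyp1b1) was lower without overlap of arrays in subcutaneous than in intraabdominal adipocytes and 0 were higher, where 24.3% of all probe sets tested did not overlap in either direction (13.6% higher, 10.7% lower). In stromo-vascular cells 1 was higher in the subcutaneous depot (Hsd11b1) and 1 lower (Cyp1b1), against 37.3% of all (20.5% higher, 16.8% lower). Between the fractions of subcutaneous fat 2 were lower in adipocytes without overlap (Cyp1b1 and Ahr) and 0 higher, against 60.0% of all (27.6% higher, 32.3% lower). Between those of intraabdominal fat 2 were lower in adipocytes (Cyp1b1 and Ahr) and 1 higher (Hsd11b1), against 59.9% of all (26.2% higher, 33.8% lower). Nr3c1 overlapped in every comparison. These counts follow from how the genes were picked and nothing is read from them.

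**Figure D1:**
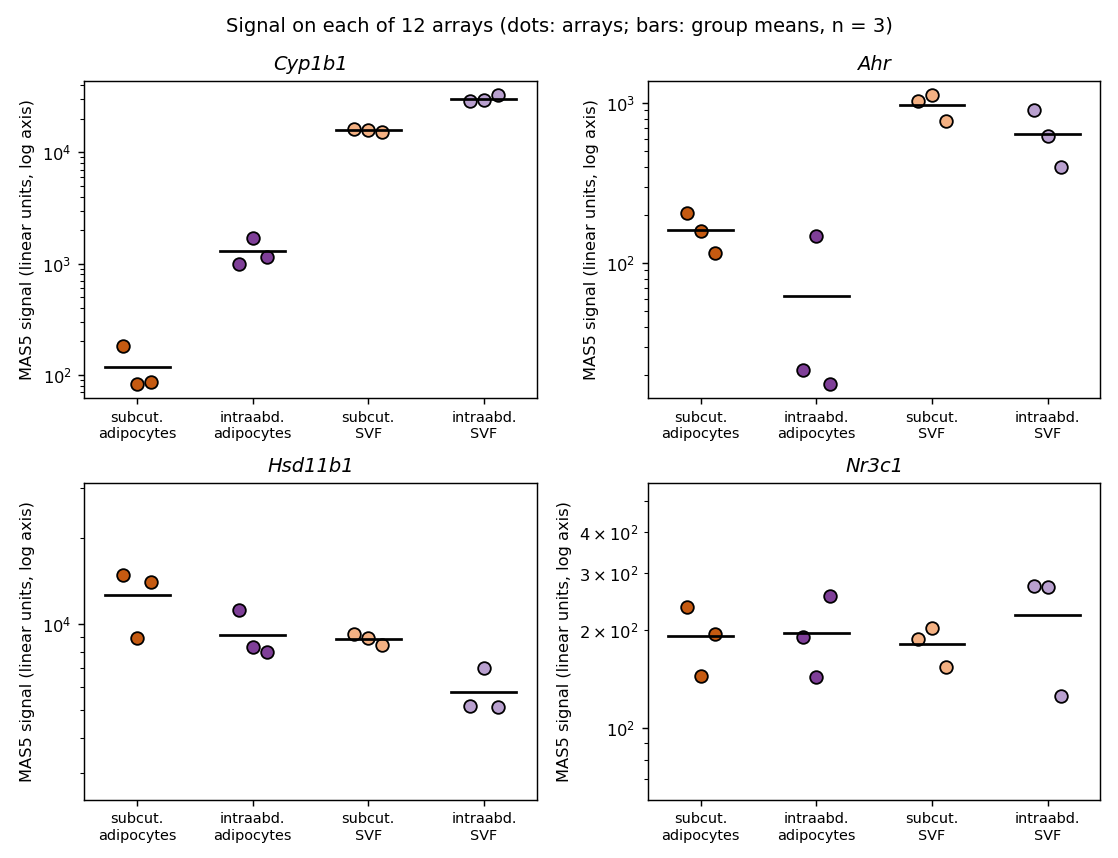
Signal of each array (points, log axis) for the 4 probe sets kept by the filter, in subcutaneous adipocytes, intraabdominal adipocytes, subcutaneous stromo-vascular cells and intraabdominal stromo-vascular cells, with the mean of each group of 3. Cyp1b1 climbs in that order without overlap, Ahr is lower in both adipocyte groups, and Nr3c1 overlaps throughout.

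Cyp1b1 had the widest span of the 4 genes. Its signal was 184, 83.6 and 85.9 on the 3 arrays of subcutaneous adipocytes (mean 118 ± 57.1, SD, n = 3). It was 1001, 1712 and 1156 in intraabdominal adipocytes (1289 ± 374). It was 16312, 16006 and 15332 in subcutaneous stromo-vascular cells (15883 ± 501), and 28952, 29663 and 32448 in intraabdominal stromo-vascular cells (30355 ± 1848). The 4 groups thus had an order with no overlap between any neighbours: lowest in subcutaneous adipocytes and highest in intraabdominal stromo-vascular cells.

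In adipocytes the Cyp1b1 log2 difference, subcutaneous minus intraabdominal, was -3.10 ± 0.221 (SE), an 8.55-fold lower level in subcutaneous adipocytes. The choice of pseudocount matters for so dim a group: the difference was -3.50 with a pseudocount of 1 and -2.33 with one at the 30th percentile of all values. In stromo-vascular cells it was -0.93 ± 0.221, a 1.91-fold lower level in the subcutaneous depot. Taking the stromo-vascular value off the adipocyte one gave -2.17 ± 0.313 (8.43% of all probe sets were called by limma for this difference of differences, 3.9% higher and 4.53% lower; 46.2% of those calls were higher, and 32.9% with arrays centred on their medians), so the gap between depots was wider in adipocytes. Adipocytes minus stromo-vascular cells gave -6.71 ± 0.221 in subcutaneous fat (105-fold lower) and -4.55 ± 0.221 in intraabdominal fat (23.4-fold lower).

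The mean Cyp1b1 signal of adipocytes was 0.741% of that of stromo-vascular cells in subcutaneous fat and 4.25% in intraabdominal fat. For the summed preadipocyte and fibroblast markers the same percentages were 21.1% and 17.6%. Not all 14 went with the sum. In adipocytes 10 were called lower and 2 higher in subcutaneous fat, and 11 lower and 2 higher in intraabdominal fat. Cd34 and Dpt were the higher ones in both depots. The fibroblast sum was the higher in subcutaneous adipocytes, the adipocyte group with the lower Cyp1b1 signal. Sums of smooth muscle and pericyte markers (12329 to 14849 in subcutaneous and 19559 to 21591 in intraabdominal adipocytes, 1 of 10 called lower) moved with Cyp1b1. So did those of lymphocyte markers (15339 to 20507 in subcutaneous and 27177 to 36075 in intraabdominal adipocytes, 1 of 6 called lower). The median log2 differences of the 2 lists were 0.09 and 0.85, so neither median had the direction of Cyp1b1. Adipocyte markers also moved with Cyp1b1, summing to 449001 to 523050 in subcutaneous and 535925 to 623963 in intraabdominal adipocytes. Their median was -0.29, the direction of Cyp1b1, with 1 of 13 called lower and 0 higher. Between the stromo-vascular groups the sums of 3 marker lists moved with Cyp1b1. Among sums that ran against it was that of lymphocyte markers (36624 to 38624 in the subcutaneous and 8058 to 8823 in the intraabdominal group). Only 1 of 6 lymphocyte markers was called there, Thy1, which is also in the preadipocyte and fibroblast list, and the list's median was 0.17. Macrophage markers summed to 29002 to 31427 in the subcutaneous stromo-vascular group and 50898 to 58244 in the intraabdominal one, with 9 of 15 lower and 1 higher in the subcutaneous depot. Smooth muscle and pericyte markers summed to 41873 to 42649 in the subcutaneous stromo-vascular group and 164431 to 194076 in the intraabdominal one (8 of 10 lower, 0 higher). Mesothelial markers, of the lining of the abdominal cavity, summed to 1215 to 1627 in the subcutaneous stromo-vascular group and 6983 to 7268 in the intraabdominal one (5 of 5 lower). The part of these cells in the Cyp1b1 level was not tested.

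The second Cyp1b1 probe set was dim everywhere and was not kept by the filter. It read 60.2, 13.4 and 62.0 in subcutaneous adipocytes, 3.27, 4.36 and 4.27 in intraabdominal adipocytes, 1.52, 3.05 and 5.86 in subcutaneous stromo-vascular cells, and 4.16, 0.842 and 3.77 in intraabdominal stromo-vascular cells. Its highest arrays were the subcutaneous adipocytes, the group in which the first probe set was lowest. At this signal no fold is given, and the account of Cyp1b1 rests on 1 probe set.

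**Figure D2:**
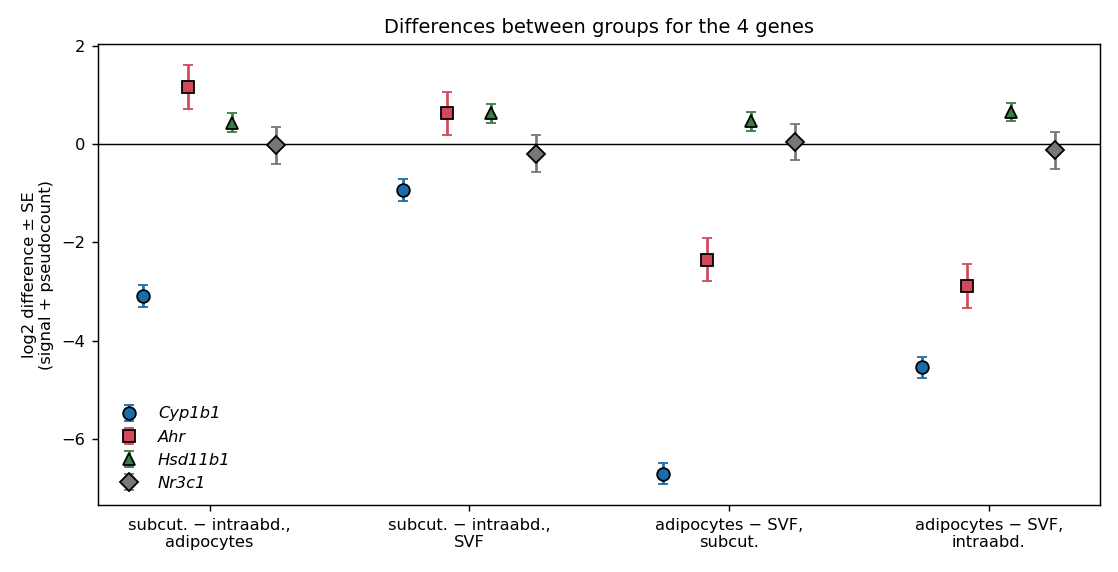
Log2 differences of Cyp1b1, Hsd11b1, Nr3c1 and Ahr with standard errors (bars) in 4 comparisons: subcutaneous minus intraabdominal adipocytes, the same in stromo-vascular cells, and, for each depot, adipocytes minus stromo-vascular cells. Cyp1b1 lies below 0 in all 4, Ahr lies far below 0 in both fraction comparisons, and Nr3c1 stays near 0.

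The genes whose pattern over the 12 arrays was nearest to that of Cyp1b1 were measured by the root mean square difference of log2 values, each probe set's own mean being taken off. They were Mmp12 (0.863), a macrophage elastase, Tnc (1.02), the matrix protein tenascin C, Apbb1ip (1.05), an adaptor of integrin activation, Ampd3 (1.09), an AMP deaminase, and Fbln2 (1.13), the matrix protein fibulin 2. The spread of Cyp1b1 around its own mean was 3.05 on this measure and the median distance of all probe sets to it was 3.06, so even the nearest gene stayed some way off. Mmp12 averaged 124 in subcutaneous and 255 in intraabdominal adipocytes, then 4900 in the subcutaneous stromo-vascular group and 13497 in the intraabdominal one, the same order of groups as Cyp1b1. Fbln2 averaged 83473 in the subcutaneous stromo-vascular group and 75417 in the intraabdominal one, so it shared the fraction difference and not the depot order.

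**Figure D3:**
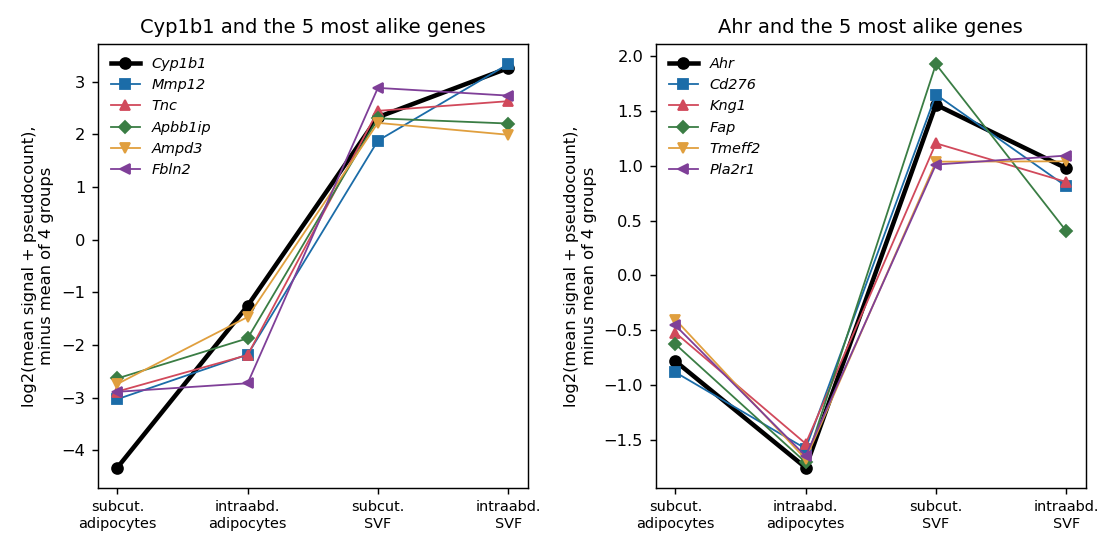
Log2(mean signal + pseudocount) minus its mean over the 4 groups for Cyp1b1 and for Ahr, each with the 5 genes nearest to it over the 12 arrays. Lines only join the groups. Nearness ranges from 0.863 to 1.13 for Cyp1b1, whose nearest genes share its fraction difference.

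Ahr, the receptor that drives Cyp1b1 when it has ligand, shared the fraction difference and not the depot difference of Cyp1b1. Its signal was 206, 159 and 116 in subcutaneous adipocytes (160 ± 45.0, SD, n = 3) and 21.3, 148 and 17.6 in intraabdominal adipocytes (62.2 ± 74.1). It was 1038, 1118 and 774 in subcutaneous stromo-vascular cells (977 ± 180) and 901, 621 and 399 in intraabdominal stromo-vascular cells (640 ± 251). Both adipocyte groups lay wholly below both stromo-vascular groups, while the depots overlapped within each fraction. In adipocytes that overlap rests on array 2 of the intraabdominal group, at 148, whereas the other two arrays read 21.3 and 17.6.

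The Ahr log2 difference between fractions was -2.35 ± 0.445 in subcutaneous fat (5.10-fold lower in adipocytes) and -2.89 ± 0.445 in intraabdominal fat (7.43-fold lower). Between depots it was 1.17 ± 0.445 in adipocytes, 1.73 without intraabdominal adipocyte array 2, and 0.63 ± 0.445 in stromo-vascular cells. The depot differences of Cyp1b1 in the same comparisons were negative. Those of Ahr came from overlapping arrays in both fractions, and its adipocyte difference was 0.37 with the actin ratio as covariate. Whether Ahr has a part in the Cyp1b1 level was not tested. The mean adipocyte signal of Ahr was 16.4% of that of stromo-vascular cells in subcutaneous and 9.72% in intraabdominal fat, nearer to the percentages of the fibroblast markers (21.1% and 17.6%) than Cyp1b1 was. The genes nearest to Ahr were Cd276 (0.425), an immune checkpoint protein, Kng1 (0.467), kininogen, Fap (0.501), a surface protease of activated fibroblasts, Tmeff2 (0.522) and Pla2r1 (0.528), a phospholipase A2 receptor. The spread of Ahr around its own mean was 1.48.

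Cyp1a1, the other classical P450 target of the aryl hydrocarbon receptor, ran against Cyp1b1. It rose in adipocytes relative to stromo-vascular cells of both depots: it averaged 648 ± 147 in subcutaneous adipocytes against 88.6 ± 69.7 in subcutaneous stromo-vascular cells (6.04-fold, adjusted p = 0.000125), and 569 ± 125 in intraabdominal adipocytes against 162 ± 23.8 in intraabdominal stromo-vascular cells (2.98-fold, adjusted p = 0.00633; SD, n = 3 each). A second Cyp1a1 probe set gave a log2 difference of -0.47 in subcutaneous fat, and with the actin ratio as covariate that call was lost (1.56). The probe sets of Ahrr, the repressor of the receptor, and Cyp1a2 were too dim to be tested.

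Of the 21 receptor partners and targets listed, 15 were on the array and 10 were tested. In adipocytes 0 of 10 differed between depots at adjusted p under 0.05 (3 at an unadjusted p under 0.05), where 8.13% of all probe sets were called by limma (3.97% higher and 4.16% lower). With each array centred on its median 958 probe sets were called, of which 18.0% were higher in subcutaneous adipocytes, against 48.8% of the 707 called as deposited. In stromo-vascular cells 2 of 10 were higher in the subcutaneous depot and 0 lower, against 12.9% of all called (6.49% higher, 6.45% lower). These were Xdh, xanthine dehydrogenase, at 11697 ± 323 in the subcutaneous stromo-vascular group and 7283 ± 602 in the intraabdominal one (1.61-fold, adjusted p = 0.0144), and Nfe2l2, a factor of the oxidant response, at 10284 ± 277 in the subcutaneous and 7720 ± 348 in the intraabdominal group (1.33-fold, adjusted p = 0.0333). The Nfe2l2 call was lost without any 1 of the 6 stromo-vascular arrays (log2 0.38 to 0.45), and the Xdh call without subcutaneous stromo-vascular array 2 (0.66) or intraabdominal stromo-vascular array 1 (0.62). Both calls were also lost with arrays centred on their medians (0.63 for Xdh, 0.36 for Nfe2l2). The Nfe2l2 call was lost with no trend and with the replicate block as well.

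Between fractions 3 of these 10 genes rose and 3 fell in adipocytes of subcutaneous fat (52.8% of all called, 23.5% higher and 29.4% lower), and 3 rose and 4 fell in intraabdominal fat (51.3% of all called, 22.4% higher and 29.0% lower). Tiparp, a negative feedback target of the receptor, rose with Cyp1a1. It averaged 3983 ± 1395 in adipocytes against 2121 ± 269 in stromo-vascular cells of subcutaneous fat, and 4688 ± 377 in adipocytes against 1530 ± 553 in stromo-vascular cells of intraabdominal fat (3.13-fold, adjusted p = 7.23e-05). The subcutaneous Tiparp call was lost without subcutaneous adipocyte array 3 (log2 0.59). Nqo1, a quinone reductase, fell in adipocytes of both depots (1.79-fold in subcutaneous and 1.95-fold in intraabdominal fat, adjusted p = 0.0218 and 0.0103). Xdh fell too, 4.48-fold in subcutaneous and 1.93-fold in intraabdominal adipocytes. With the actin ratio as covariate the calls of Xdh (log2 -1.91 in subcutaneous and -0.79 in intraabdominal fat, against -2.16 and -0.95 without it), Nfe2l2 (-0.98 and -0.80, against -1.07 and -0.86) and subcutaneous Tiparp (2.42, against 0.84) were lost, though no direction changed. The list median, log2 -0.07 and -0.37 for the depots in that order, stood beside -0.04 and -0.11 over all probe sets. With the covariate the list had 5 calls over the 5 comparisons, against 17 without it. The Nqo1 calls and the intraabdominal Cyp1a1 call were not followed singly in that fit.

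Hsd11b1 was the only 1 of the 4 genes with a higher mean in adipocytes than in stromo-vascular cells of both depots by more than its standard error. Its signal was 14817, 8965 and 14068 in subcutaneous adipocytes (12616 ± 3185, SD, n = 3) and 11162, 8314 and 7995 in intraabdominal adipocytes (9157 ± 1744). It was 9258, 8921 and 8441 in subcutaneous stromo-vascular cells (8873 ± 410) and 5180, 7033 and 5112 in intraabdominal stromo-vascular cells (5775 ± 1090). The intraabdominal stromo-vascular arrays lay below all others, and the remaining 3 groups overlapped.

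The Hsd11b1 log2 difference between depots was 0.63 ± 0.191 in stromo-vascular cells (1.55-fold higher in the subcutaneous depot) and 0.44 ± 0.191 in adipocytes, where the arrays overlapped. The difference of those differences was -0.19 ± 0.271, less than its standard error. Adipocytes minus stromo-vascular cells gave 0.66 ± 0.191 in intraabdominal fat (1.58-fold higher) and 0.47 ± 0.191 in subcutaneous fat, where the arrays overlapped. With the actin ratio as covariate these fraction differences became 1.51 and 1.78. Endothelial markers were also higher in adipocytes, 9 of 10 in each depot, with sums of 20622 to 37167 in subcutaneous and 24179 to 26559 in intraabdominal adipocytes, against 10619 to 12180 in the subcutaneous stromo-vascular group and 10414 to 17708 in the intraabdominal one. Erythroid markers summed to 19046 to 46097 in subcutaneous and 21015 to 22650 in intraabdominal adipocytes, against 1461 to 1645 in the subcutaneous stromo-vascular group and 1027 to 1792 in the intraabdominal one. Their part in the Hsd11b1 level, and in the list genes below that rose in adipocytes, was not tested. Nearest to Hsd11b1 were Zfp36l2 (0.199), an RNA-binding protein, Tgoln1 (0.223), a Golgi protein, Zfp777 (0.229), Traf2 (0.238), a signalling adaptor, and B2m (0.244), the light chain of class I histocompatibility molecules. The spread of Hsd11b1 around its own mean was 0.452.

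Nr3c1 did not separate any groups. Its signal was 236, 144 and 195 in subcutaneous adipocytes (192 ± 45.8, SD, n = 3) and 191, 143 and 255 in intraabdominal adipocytes (196 ± 56.0). It was 189, 203 and 154 in subcutaneous stromo-vascular cells (182 ± 24.9) and 273, 271 and 125 in intraabdominal stromo-vascular cells (223 ± 84.5). The lowest and the highest array of the 12 both belonged to the intraabdominal stromo-vascular group. Log2 differences were -0.02 and -0.19 between depots (adipocytes, then stromo-vascular cells) and 0.05 and -0.12 between fractions (subcutaneous, then intraabdominal), each ± 0.374. None of the 4 exceeded its standard error, and a difference of that size could not be seen at this signal. The nearest genes were Tuba4a (0.168), Tspan9 (0.189), Tm2d2 (0.201), Memo1 (0.207) and Lrrc8a (0.231), beside a spread of Nr3c1 around its own mean of 0.30.

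Of 16 genes for glucocorticoid supply and partners of the receptor, 13 were on the array and 9 were tested. H6pd makes the reduced cofactor that Hsd11b1 needs to regenerate corticosterone. It averaged 22452 ± 2257 in adipocytes against 35044 ± 2863 in stromo-vascular cells of subcutaneous fat, and fell 1.56-fold (adjusted p = 0.00255), while Hsd11b1 had the higher mean in those adipocytes. In intraabdominal fat H6pd averaged 31826 ± 7523 in adipocytes and 31507 ± 2533 in stromo-vascular cells. Hsd11b2, which inactivates corticosterone, was too dim to be tested: its probe sets averaged 101 and 77.0 in subcutaneous adipocytes, 85.5 and 43.7 in intraabdominal adipocytes, 75.6 and 108 in subcutaneous stromo-vascular cells, and 57.4 and 84.9 in intraabdominal stromo-vascular cells.

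The tested genes of this list, for supply and partners together, were called between fractions about as often as all probe sets. In subcutaneous fat 4 of the 9 rose and 2 fell in adipocytes (66.7%, against 52.8% of all called), and in intraabdominal fat 4 rose and 0 fell (44.4%, against 51.3% of all). Fkbp5, a chaperone partner that holds the receptor inactive and is itself induced by it, averaged 5241 ± 1802 in intraabdominal adipocytes against 1623 ± 83.5 in intraabdominal stromo-vascular cells (3.03-fold, adjusted p = 0.00112). Fkbp4, the partner that helps the receptor reach the nucleus, rose 2.76-fold in subcutaneous and 3.19-fold in intraabdominal adipocytes. Its second probe set was called in the opposite direction, with log2 differences of -0.70 and -0.97 (limma adjusted p = 0.00201 and 0.000123). The direction of Fkbp4 is thus unsettled. Nrip1, a corepressor of nuclear receptors, rose in adipocytes of both depots (2.57-fold in subcutaneous and 5.80-fold in intraabdominal fat). It was the 1 gene of the 9 called between depots (11.1% in each fraction, against 8.13% of all in adipocytes and 12.9% in stromo-vascular cells), lower in subcutaneous adipocytes at 6738 ± 801 against 10020 ± 1616 in intraabdominal ones (adjusted p = 0.0385) and higher in subcutaneous stromo-vascular cells at 2590 ± 279 against 1688 ± 217 in intraabdominal ones (adjusted p = 0.0166). The first of these calls was lost without any 1 of subcutaneous adipocyte arrays 1 and 3, intraabdominal adipocyte arrays 2 and 3, subcutaneous stromo-vascular arrays 1 and 2 and intraabdominal stromo-vascular array 2 (log2 -0.46 to -0.56) and with the actin ratio as covariate (-0.74), and the second without subcutaneous stromo-vascular array 2 (0.53) or intraabdominal stromo-vascular array 3 (0.50). Quantile normalization (-0.47), array weights (-0.50), no trend and the fit of 6 arrays also lost the first call. With the actin ratio as covariate, calls were lost while the log2 difference grew for H6pd in subcutaneous fat (-1.03, against -0.64 without it) and for Fkbp5 (1.87, against 1.60) and Bag1 (0.94, against 0.66) in intraabdominal fat. Calls were lost with a smaller difference for Stip1 (-0.06, against -1.14), Fkbp4 (0.79, against 1.46) and Nrip1 (0.91, against 1.36) in subcutaneous fat. The Bag1 call was also lost without intraabdominal adipocyte array 1 or intraabdominal stromo-vascular arrays 2 or 3 (0.45 to 0.59).

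Genes known as targets of the receptor Nr3c1, though each answers to other signals too, included some called between depots in each fraction. Because the list was chosen with earlier results known, nothing is read from its counts. Of 23 listed, 21 were tested, and in stromo-vascular cells 9 rose and 2 fell in the subcutaneous depot, against 12.9% of all probe sets called. Those that rose included the metallothioneins Mt1 (44770 ± 1968 in the subcutaneous stromo-vascular group and 8011 ± 2320 in the intraabdominal one, 5.73-fold, adjusted p = 1.93e-06) and Mt2 (100711 ± 8732 in the subcutaneous and 16878 ± 2112 in the intraabdominal group, 5.97-fold, adjusted p = 7.91e-08), which zinc also induces. Agt, angiotensinogen, averaged 754 ± 54.8 in the subcutaneous stromo-vascular group and 88.7 ± 5.32 in the intraabdominal one (6.16-fold, adjusted p = 7.20e-08). The transcription factors Klf9 (2.08-fold) and Cebpb (1.88-fold) and the inhibitor Nfkbia (1.82-fold) rose as well. Hsd11b1 was 1.55-fold higher in the same cells, and a link between it and these genes was not tested. Dusp1, a phosphatase of MAP kinases, fell 2.95-fold (adjusted p = 0.000463) and Anxa1, annexin A1, fell 1.75-fold (adjusted p = 0.000343).

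In adipocytes 3 of the 21 targets rose and 5 fell in the subcutaneous depot, against 8.13% of all called. Agt fell here: it averaged 2185 ± 210 in subcutaneous and 16339 ± 2239 in intraabdominal adipocytes (7.34-fold, adjusted p = 8.94e-08). Errfi1, a feedback inhibitor of the EGF receptor, fell 3.11-fold (adjusted p = 0.000243), Anxa1 1.67-fold, and the acute phase genes Lcn2 3.21-fold and Saa3 2.76-fold. Pdk4, Glul and Ddit4 rose (3.0-fold, 1.83-fold and 1.56-fold). These calls were lost when only the 6 adipocyte arrays were fitted, and that of Ddit4 also with no trend. The Pdk4 call was lost without any 1 of subcutaneous adipocyte arrays 2 and 3 and intraabdominal adipocyte arrays 1 and 2 (log2 1.28 to 1.45), as was that of Ddit4 (0.46 to 0.69), and that of Glul without subcutaneous array 2 or intraabdominal arrays 1 or 2 (0.71 to 0.76). With the actin ratio as covariate the calls of Saa3 (-1.70, against -1.46 without it), Pdk4 (1.66, against 1.58), Lcn2 (-1.42, against -1.68), Errfi1 (-1.06, against -1.64), Glul (0.41, against 0.87) and Ddit4 (0.31, against 0.64) were lost.

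Second probe sets of these targets did not all point the same way. That of Lcn2 gave 0.59 between adipocyte depots and 0.17 between stromo-vascular depots, and that of Zbtb16, which rose 4.95-fold in subcutaneous stromo-vascular cells, gave -0.83. Nfkbia's gave 0.50 in stromo-vascular cells and Glul's 0.13 in adipocytes, without a call. The stromo-vascular call of Ddit4 was lost without any 1 of the 3 subcutaneous arrays or of intraabdominal arrays 2 and 3 (0.51 to 0.64). With arrays centred on their medians the Ddit4 calls of both fractions were lost (0.42 in adipocytes and 0.53 in stromo-vascular cells).

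Between fractions 12 of the 21 targets rose and 8 fell in subcutaneous adipocytes, and 10 rose and 6 fell in intraabdominal adipocytes, next to 52.8% and 51.3% of all called. Agt had the smallest p in intraabdominal fat, 126-fold higher in adipocytes, against 2.80-fold in subcutaneous fat. Nfkbia was 7.98-fold and 13.5-fold higher in subcutaneous and intraabdominal adipocytes than in their stromo-vascular cells, and Lpin1, a phosphatidate phosphatase of fat synthesis, 10.4-fold and 10.7-fold higher. Lcn2 fell 33.8-fold and Saa3 20.3-fold in subcutaneous adipocytes, but the second probe set of Lcn2 gave 0.09. The list's median was 0.68 in subcutaneous and 0.46 in intraabdominal fat, beside -0.04 and -0.11 over all probe sets.

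**Figure D4:**
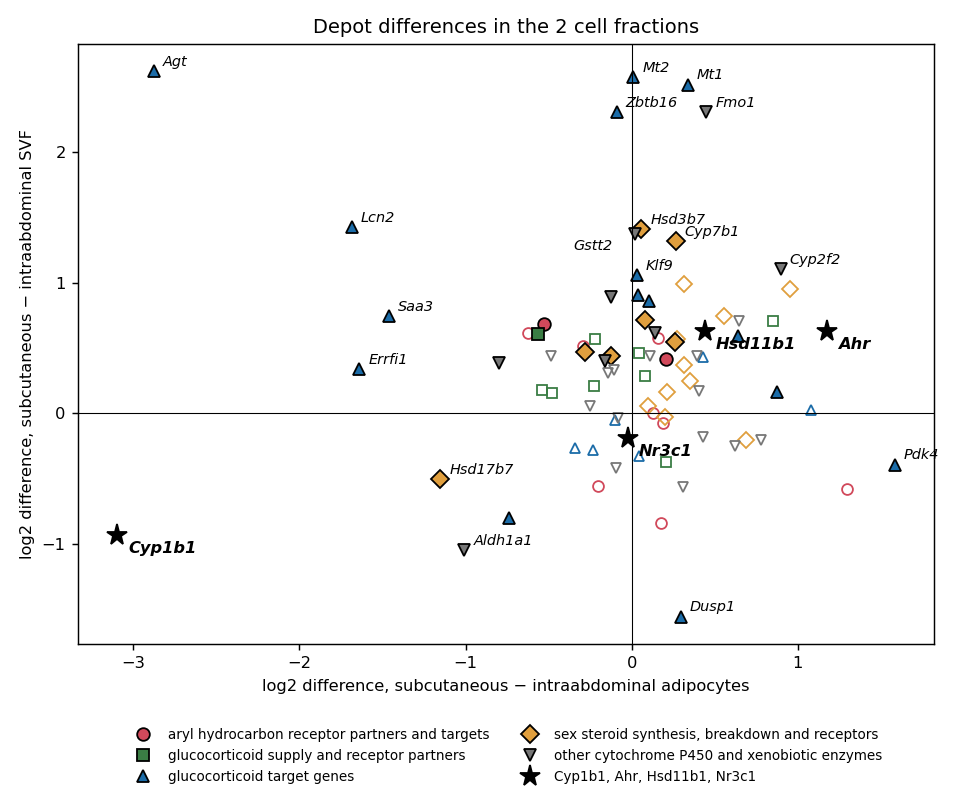
Log2 depot difference (subcutaneous minus intraabdominal) in stromo-vascular cells against that in adipocytes for genes of the 5 lists and the 4 genes (stars); filled points passed the threshold in at least 1 depot comparison and open points in none. Agt lies at -2.88 in adipocytes and 2.62 in stromo-vascular cells, whereas Cyp1b1 is negative on both axes.

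Steroids other than glucocorticoids are also substrates of Cyp1b1, and 17 of 33 genes of sex steroid synthesis, breakdown and reception were tested (23 were on the array). In stromo-vascular cells 6 rose and 0 fell in the subcutaneous depot, where Cyp1b1 was lower (35.3%, against 12.9% of all called and 6.49% higher). Hsd3b7, which despite its name acts in bile acid synthesis, averaged 5400 ± 823 in the subcutaneous stromo-vascular group and 2011 ± 334 in the intraabdominal one (2.66-fold, adjusted p = 7.41e-05). Cyp7b1, a hydroxylase of oxysterols and dehydroepiandrosterone, averaged 2072 ± 301 in the subcutaneous and 800 ± 41.6 in the intraabdominal group (2.50-fold, adjusted p = 0.0177). Hsd17b12 (1.64-fold), Hsd17b4 (1.38-fold), Cyp21a1 (1.46-fold) and Cyb5a (1.36-fold) made up the rest. Hsd17b12 and Hsd17b4 also serve fatty acid elongation and oxidation.

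The stromo-vascular call of Hsd17b12 was lost without subcutaneous array 1 (0.57) or 3 (0.62). That of Cyp7b1 was lost without subcutaneous arrays 1 or 2 or intraabdominal array 2 (1.26 to 1.28). With arrays centred on their medians those of Cyp21a1 (0.49) and Cyb5a (0.38) were lost. The Cyp21a1 call was lost without any 1 of subcutaneous arrays 2 and 3, the 3 intraabdominal arrays and intraabdominal adipocyte array 2 (0.44 to 0.59) and with the actin ratio as covariate (0.53), that of Cyb5a without any 1 of the 3 subcutaneous arrays, intraabdominal arrays 1 and 3 and intraabdominal adipocyte arrays 1 and 2 (0.32 to 0.48), and that of Hsd17b4 with arrays centred on their medians (0.41). In adipocytes 1 of 17 was called (5.88%, against 8.13% of all): Hsd17b7, which acts in cholesterol synthesis and on estrone, fell in the subcutaneous depot (159 ± 78.1 against 375 ± 32.0 in intraabdominal adipocytes, adjusted p = 0.0402). That call was lost without subcutaneous adipocyte array 2 (-0.77), intraabdominal adipocyte array 1 or 2, or any 1 of the 6 stromo-vascular arrays, and with the actin ratio as covariate (-0.82, against -1.15 without it).

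Between fractions 6 of the 17 rose and 2 fell in subcutaneous adipocytes, and 7 rose and 1 fell in intraabdominal adipocytes (47.1% in each depot, against 52.8% and 51.3% of all called). Sult1a1, a sulfotransferase of phenols and estrogens, averaged 1844 ± 277 in adipocytes against 17 ± 6.63 in stromo-vascular cells of subcutaneous fat (32.9-fold, adjusted p = 2.79e-09) and 1126 ± 158 in adipocytes against 26.0 ± 10.8 in stromo-vascular cells of intraabdominal fat (17.7-fold). Cyp7b1 fell in adipocytes, 7.08-fold in subcutaneous and 3.41-fold in intraabdominal fat, the direction of Cyp1b1. The subcutaneous call of Hsd17b10 (2.44-fold) was lost with the actin ratio as covariate, at log2 1.76 against 1.29 without it.

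Among 22 tested of 37 other P450 and xenobiotic enzymes (33 on the array), 13 rose and 5 fell in subcutaneous adipocytes (81.8%, against 52.8% of all called), and 14 rose and 5 fell in intraabdominal adipocytes (86.4%, against 51.3% of all). The share that fell, the direction of Cyp1b1, was near the 29.4% and 29.0% of all probe sets. The same 5 fell in both depots: Ephx1, Gstm2, Gstp1, Aldh1a1 and Aldh3a2, none of them a P450. Cyp2e1, a P450 of small solvents, averaged 89628 ± 6789 in adipocytes against 839 ± 22.7 in stromo-vascular cells of subcutaneous fat and 156055 ± 15689 in adipocytes against 642 ± 152 in stromo-vascular cells of intraabdominal fat (102-fold and 232-fold, adjusted p = 8.44e-14 and 1.89e-14). Ces1d, a carboxylesterase of the fat droplet, averaged 46103 ± 4214 in subcutaneous and 34868 ± 3516 in intraabdominal adipocytes, against 25.2 ± 12.7 and 18.1 ± 13.6 in their stromo-vascular cells. Fmo1 and Ephx2 rose in both depots as well (8.82-fold and 7.45-fold in subcutaneous fat).

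Between depots 0 of the 22 enzymes rose and 2 fell in subcutaneous adipocytes, and 6 rose and 1 fell in subcutaneous stromo-vascular cells (9.09% and 31.8%, against 8.13% and 12.9% of all called). Cyp2e1 fell 1.74-fold in adipocytes (adjusted p = 0.00389), a call lost with the actin ratio as covariate (log2 -0.73, against -0.80 without it). Aldh1a1, which makes retinoic acid, fell in subcutaneous adipocytes (8658 ± 1709 against 17238 ± 687 in intraabdominal adipocytes, adjusted p = 0.000350) and in subcutaneous stromo-vascular cells (12040 ± 165 against 25049 ± 2012 in the intraabdominal group, adjusted p = 6.21e-05). It thus had the depot direction of Cyp1b1 in both fractions, although its second probe set gave 0.78 and 0.06 and the adipocyte call was lost with the actin ratio as covariate (-0.69, against -1.01 without it). Fmo1 rose 4.95-fold in subcutaneous stromo-vascular cells (adjusted p = 2.97e-07), and Gstp1 rose 1.85-fold.

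The other 4 stromo-vascular calls were less steady. With arrays centred on their medians those of Mgst1 (log2 0.56) and Aldh2 (0.34) were lost. The Aldh2 call was also lost with the replicate block, and the second Aldh2 probe set gave 0.48 without a call. That of Cyp2f2 was lost without subcutaneous array 2 or 3 (0.95), that of Gstt2 without any 1 of the 3 subcutaneous arrays or intraabdominal array 3 (0.86 to 1.45), that of Mgst1 without subcutaneous arrays 1 or 2 or intraabdominal array 3 (0.48 to 0.66), and that of Aldh2 without subcutaneous arrays 1 or 2 or intraabdominal arrays 2 or 3 (0.33 to 0.39).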

How the data were processed

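Messenger RNA of 12 samples was measured on 1-colour Affymetrix arrays of 12488 probe sets, with 3 arrays in each of 4 groups taken from the labels. Each deposited value is a linear intensity that the authors made with MAS5, per the submitters' processing notes. No version of it and no detection call was used here. Array means trimmed by 2% differed by a ratio of at most 1.00017, so the scale was left as deposited. No pair of arrays was identical (0 pairs). For arrays, their number limits the precision.

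The 66 control probe sets were left out. Of the other 12422, 10833 had 1 gene symbol in the platform annotation, 396 several and 1193 none here, and those with several named no gene. Log2(signal + 40.1) was fitted with 4 group means over the 12 arrays in limma 3.58.1 (lmFit, contrasts.fit, eBayes with trend) in R 4.3.3, after the lowest 30% by mean log2 signal were left out (8695 kept, 6436 named genes). Adjusted p-values are limma's after Benjamini-Hochberg adjustment over all 8695, called under 0.05. A list gene was represented by its kept probe set with the highest mean. The steps were tested on simulated data.

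The 4 genes and the lists were chosen with earlier results of these data known. Genes were named by rule: the 4 genes; list genes called between depots; up to 4 genes of each list with the smallest p in each other comparison, of which the text takes part; the 5 genes nearest to each of the 4 over the arrays; Cyp1a1 and Hsd11b2. Ahrr, Cyp1a2 and H6pd in intraabdominal fat were added after their values were seen. Alternatives were other pseudocounts, filters and normalizations, no trend, array weights, 6 arrays, the actin ratio as covariate, a replicate block, second probe sets, and each array left out in turn. Losses in fits with other filters, no trend, array weights, 6 arrays or the block are not all named in the text. Tables and plots were made with Python 3.11.15.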

Additional observations from a re-analysis of the deposited data

Results flagged for a closer look

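For every probe set the depot difference, subcutaneous minus intraabdominal, was compared between adipocytes and stromo-vascular cells by an interaction term, where 8.43% of all probe sets were called. Of the list genes tested, 2 of 10 aryl hydrocarbon receptor partners and targets, 1 of 9 genes of glucocorticoid supply, 12 of 21 glucocorticoid targets (2 higher, 10 lower), 2 of 17 sex steroid genes and 5 of 22 other enzymes were called. The 13 given here have the smallest p of their lists, up to 4 from each, and all 13 had the lower depot difference in adipocytes. Beside them the Cyp1b1 value, which has no test, was -2.17.

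Agt had the widest one, log2 -5.50 (adjusted p = 4.23e-09): it was lower in subcutaneous than in intraabdominal adipocytes on 3 of 3 arrays and higher on 3 of 3 in the subcutaneous stromo-vascular group. Lcn2 had -3.11 (adjusted p = 0.000141), but its second probe set gave 0.42. Mt2 had -2.57 and Mt1 -2.18 (adjusted p = 4.39e-06 and 0.000367). Their depot difference was 0.01 and 0.34 in adipocytes, and 2.58 and 2.52 in stromo-vascular cells.

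Among the enzymes, Fmo1 had -1.86 (adjusted p = 0.000149), Hsd3b7 -1.35 (0.00323), Cyp2e1 -1.19 (0.00211), Gstp1 -1.01 (0.0128), Gstm2 -0.92 (0.0119) and Hsd17b4 -0.75 (0.00673). The second probe set of Gstm2 gave 1.04. With the actin ratio as covariate the calls of Hsd3b7 (-0.99), Gstp1 (-0.81) and Gstm2 (-0.59) were lost. Of the aryl hydrocarbon receptor list, Gsta3 had -1.24 (adjusted p = 0.0186) and Xdh -1.21 (adjusted p = 0.00491). The Gsta3 call was lost without intraabdominal adipocyte array 1 (-1.10) or subcutaneous stromo-vascular array 1 (-1.20), and with the actin ratio as covariate those of Gsta3 (-0.82) and Xdh (-1.13) were lost. Nrip1, the corepressor among the partners of the glucocorticoid receptor, had -1.17 (adjusted p = 0.00327).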

How the results depend on the processing

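Leaving out each array in turn gave 367 to 958 called probe sets between adipocyte depots (707 with all arrays, 375 without intraabdominal adipocyte array 1 and 367 without array 2), 766 to 1263 between stromo-vascular depots (1125), 3969 to 4662 and 4021 to 4640 between subcutaneous and intraabdominal fractions, and 536 to 819 for the difference of depot differences. Centring each array on its median moved the share of adipocyte depot calls that were higher in subcutaneous fat to 18.0%, against 48.8% as deposited, and of the difference of depot differences to 32.9%, against 46.2%. Its median shift over all probe sets was -0.15 and -0.13. Fitting 6 arrays gave 299 calls between adipocyte depots, and array weights gave 1952 between stromo-vascular depots. The actin ratio separates the fractions, and as a covariate it left 97, 1058, 2173 and 403 calls (adipocyte depots, subcutaneous and intraabdominal fractions, difference of depot differences). List calls summed over the 5 comparisons were then 5 for aryl hydrocarbon receptor partners and targets (17 without it), 4 for glucocorticoid supply (13), 43 for glucocorticoid targets (67), 16 for sex steroids (25) and 26 for other P450 and xenobiotic enzymes (51).

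Cyp1b1 ranged with the pseudocount at 1 and at the 30th percentile: -3.50 and -2.33 between adipocyte depots, -7.16 and -5.82 between subcutaneous fractions, -2.57 and -1.40 for the difference of depot differences (-2.51 with quantile normalization). Those pseudocounts gave Ahr 1.99 and 0.54 between adipocyte depots and -3.94 and -1.80 between intraabdominal fractions, and 1.32 for its difference of depot differences with the pseudocount at 1. With the actin ratio Cyp1b1 had -3.65, -8.12, -5.46 and -2.65 (adipocyte depots, subcutaneous and intraabdominal fractions, difference of depot differences), Hsd11b1 0.96, 1.78, 1.51 and 0.27, and Ahr 0.37, -4.38, -4.22 and -0.17. Nr3c1 had 0.52 between subcutaneous fractions.

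Of 92 calls of named list genes, 44 were kept under every alternative run. The actin covariate lost 29, leaving out at least 1 array lost 20, and the second probe set reversed 10: Cyp1a1 -0.47 and Fkbp4 -0.70 between subcutaneous and Fkbp4 -0.97 between intraabdominal fractions, Lcn2 0.59 between adipocyte depots, 0.091 between subcutaneous fractions and 0.42 for the difference of depot differences, Zbtb16 -0.83 between stromo-vascular depots, Aldh1a1 0.78 and 0.060 between adipocyte and stromo-vascular depots, and Gstm2 1.04 for the difference of depot differences. The cause was not tested. Of the 4 genes only Cyp1b1 had a second probe set. The filter left it out as too dim, and its highest arrays were those where the first was lowest, so no such check was made.

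Same-numbered arrays hardly deviated together (correlations -0.086 to 0.110, 1 of 18 over 0.1, own number nearest in 10 of 36). Whether the numbers pair samples cannot be decided this way, since a pairing with a weak shared effect would look the same. With the replicate block 595, 1054, 4506, 4406 and 645 probe sets were called (depots, fractions, difference), and 4 named calls were lost. List totals with the block were 16, 13, 66, 23 and 50.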
